A study of Mus musculus with 5 samples.

Results

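The peaks described here lie on the mitochondrial DNA and in a stretch of chromosome 1 from 24610000 to 24617000 that holds pseudogene copies of mitochondrial genes, among them Gm28439. Members were every called peak on the mitochondrial DNA and every chromosome 1 peak that began in this stretch, so they were chosen by having passed the authors' peak calling there, and their numbers and scores are a description. The list for H3K27ac in wild-type (WT) cells gave 8 of its 857 peaks, that for H3K27ac in Egr1-deficient (KO) cells 6 of 844, and that for EGR1 in WT cells 9 of 847, or 23 of 2548 together. The study sequenced chromatin immunoprecipitates (ChIP-seq) of dendritic cells grown from C57BL/6J bone marrow with 10 ng/ml GM-CSF and taken on day 6. Both genotypes were exposed to 100 ng/ml LPS and 20 mM lactic acid together for 24 h, so every sample shares this stimulation and none was left unstimulated. H3K27ac, the acetylation of lysine 27 on histone H3 that marks active promoters and enhancers, was precipitated in WT and in KO cells. EGR1, a zinc finger transcription factor, was precipitated in WT cells only, and the WT and KO input samples were not analysed here. The labels do not say how Egr1 was inactivated. Each group is 1 library, so no difference between lists has a replicate check and none was tested.

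Mitochondrial DNA is a small circular genome that codes for subunits of the respiratory chain, ribosomal RNAs and transfer RNAs. It carries no histones and is packaged by the protein TFAM, so an antibody against a histone mark has no known target on it. Fragments of mitochondrial DNA have been copied into the nuclear chromosomes during evolution. These nuclear copies sit in chromatin like other nuclear DNA, and where a copy still closely resembles its source a short read can fit both places. The labels do not say how the authors assigned such reads. The sequences were not compared here, so for peaks at positions that correspond between the 2 molecules the copy that the reads came from is uncertain.

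Neither Egr1 itself nor any of 8 dendritic cell genes (Itgax, Zbtb46, Flt3, H2-Ab1, Cd74, Ciita, Batf3 and Irf8) had a peak within 2 kb in any list, so the lists do not check the genotype or the cell type. A gene without a listed peak may still carry signal. The lists give no read counts, so depth is unknown, and more mitochondrial DNA per cell cannot be told apart from stronger precipitation. The peak shape score and the p-value of each peak are the authors' own. The scaling of the score from library to library is unknown here, so scores are set against other peaks of the same list. The deposited lists stop at a p-value of 0.05, which corresponds to a lowest score of 1.65 in each.

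The first chromosome 1 question was how far the stretch, taken at the outset as a nuclear copy, follows the mitochondrial gene order. Of the genes that RefSeq annotates there, Gm10222 (24612404 to 24612700) is 297 bp long, as is mt-Nd4l and no other mitochondrial gene. Gm10925 (24613971 to 24614651) is 681 bp long, as is mt-Atp6 and no other mitochondrial gene, and mt-Atp6 is among its older symbols. The pairs lie in opposite order on the 2 molecules, so the copy runs backwards along chromosome 1. Positions that correspond add up to 24622577 by Gm10222 and to 24622578 by Gm10925, a difference of 1 bp. The authors' gene distances place the end of Gm28661 at 24615565, that of Gm28437 at 24613971 and that of Gm28438 at 24613119. With the sum from Gm10925, used for all positions past the end of Gm10222, the ends of Gm28661 and Gm28438 fell at mitochondrial positions 7013 and 9459, the annotated first bases of mt-Co2 and mt-Nd3. The sum from Gm10222 would place each 1 bp lower. The end of Gm28437 is the first base of Gm10925, and mt-Co3 begins at the last base of mt-Atp6 (8607), so its match to mt-Co3 follows from the Gm10925 pair and adds nothing. Between the matched boundaries, and by extension for the peaks beyond them, each chromosome 1 position could thus be given a mitochondrial position. This rests on annotated gene ends and not on a comparison of sequences, and was chosen after the peaks were seen.

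On the mitochondrial DNA each list held 3 peaks, of which those in mt-Nd2 and beyond mt-Tp recurred in all lists while the remaining peak lay elsewhere in KO. At a deposited p-value of at most 0.01 only the peak beyond mt-Tp was left in each WT list and 0 peaks in KO, so the recurrence rests on the weaker threshold. mt-Nd2, which codes for a membrane subunit of respiratory complex I, held a peak near its start. It ran from 3918 to 4262 in WT H3K27ac, from 3899 to 4275 in KO H3K27ac and from 3898 to 4262 in WT EGR1. The gene begins at 3914, so the KO and EGR1 peaks also covered 15 and 16 bp of the methionine tRNA gene mt-Tm, and the WT H3K27ac peak did not reach it. The peak covered 33.2%, 34.9% and 33.6% of mt-Nd2 in the same order. It scored 2.04 for WT H3K27ac, 1.92 for WT EGR1 and 1.77 for KO H3K27ac. Its deposited p-values were 0.02, 0.03 and 0.04, and it ranked 646 of 857, 690 of 847 and 763 of 844 in that order, in the lower part of every list.

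The peak beyond mt-Tp had the highest score of the mitochondrial peaks in each list. It lay 374 bp past the proline tRNA gene in WT H3K27ac, 401 bp past it in KO H3K27ac and 405 bp past it in WT EGR1. The gene mt-Tp is the last one on the map, and the noncoding control region that follows it holds the start sites of mitochondrial transcription and of heavy-strand replication. The peak ran from 15797 to 16140 in WT H3K27ac, from 15824 to 16139 in KO H3K27ac and from 15828 to 16143 in WT EGR1. Its score was 2.61 in WT H3K27ac, with a deposited p-value of 0.00447. In WT EGR1 the score was 2.65, with a deposited p-value of 0.00407. The KO score was 1.90, with a deposited p-value of 0.03. It ranked 482 of 857 in WT H3K27ac, 463 of 847 in WT EGR1 and 698 of 844 in KO H3K27ac. No replicate shows whether a second KO library would give the same rank.

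The remaining mitochondrial peak spanned mt-Nd4l and mt-Nd4 in both WT lists and lay inside mt-Nd4 alone in KO. Both genes code for membrane subunits of complex I, and their reading frames overlap at the end of mt-Nd4l. In WT H3K27ac the peak ran from 9935 to 10272 and scored 1.69, and in WT EGR1 it ran from 9915 to 10258 and scored 1.73. It covered 80.5% of mt-Nd4l in WT H3K27ac and 87.2% in WT EGR1, and 7.69% and 6.68% of mt-Nd4. The KO peak ran from 10989 to 11315, covered 23.7% of mt-Nd4 and scored 1.71. All of these scores lay close to the lowest listed score of 1.65, and the KO peak overlapped no peak of the other lists.

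**Figure D1:**
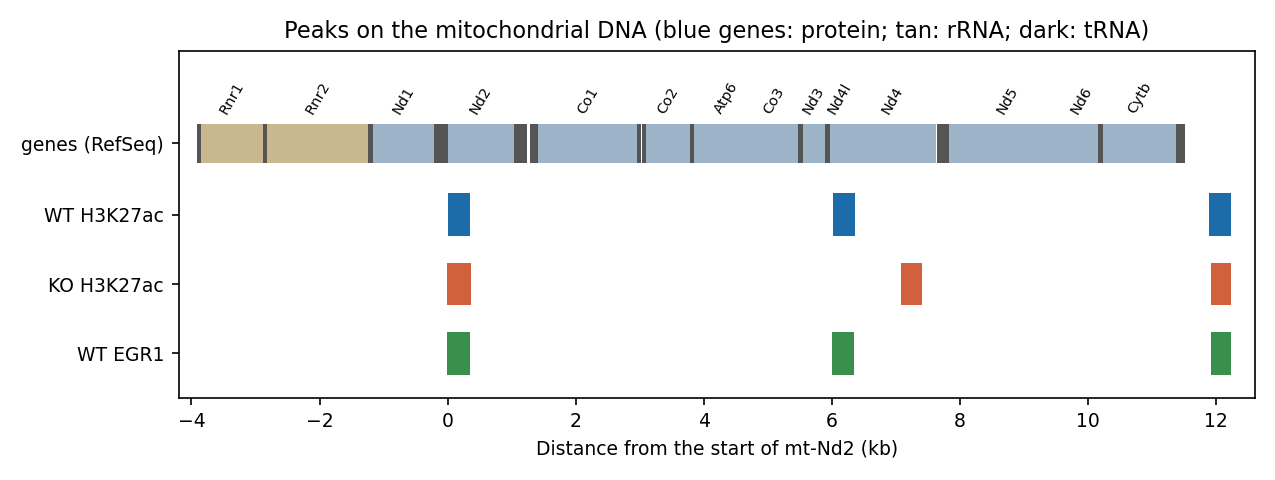
Peaks on the mitochondrial DNA in each list (coloured bars) under the RefSeq genes, by distance in kb from the start of mt-Nd2; blue genes code for proteins, tan for ribosomal RNAs and dark for tRNAs. The first and last peaks line up in all 3 lists, while the middle peak lies over mt-Nd4l in both WT lists and inside mt-Nd4 in KO.

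By the authors' gene names, 3 of the 13 mitochondrial protein-coding genes held a peak in WT H3K27ac (mt-Nd2, mt-Nd4l, mt-Nd4), the same 3 in WT EGR1, and 2 in KO H3K27ac (mt-Nd2, mt-Nd4). All are complex I genes, which form the largest group among the 13, and in each WT list mt-Nd4l and mt-Nd4 share the same peak. The complex I genes mt-Nd1, mt-Nd3, mt-Nd5 and mt-Nd6 held none, nor did mt-Cytb of complex III, mt-Co1, mt-Co2 and mt-Co3 of complex IV, or mt-Atp6 and mt-Atp8 of the ATP synthase. Neither of the 2 ribosomal RNA genes held one, and mt-Tm was the only one of 22 tRNA genes that did, in KO H3K27ac and WT EGR1. Nuclear genes that serve the mitochondria were read from lists for mitochondrial DNA packaging, replication and transcription (20 genes, among them Tfam, Polrmt and Polg) and for the nuclear subunits of complex I (36 genes, among them Ndufs1 and Ndufv1). None of them had a peak inside or within 2 kb in any list. Over all protein-coding genes the share with such a peak was 1.01% for WT H3K27ac, 1.02% for WT EGR1 and 0.97% for KO H3K27ac, so lists of this size could hold none at the background share.

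In the chromosome 1 stretch WT H3K27ac held 5 peaks, KO H3K27ac 3 and WT EGR1 6, at 6 different positions. With a deposited p-value of at most 0.01 the numbers were 4, 2 and 3, so the list with most peaks was then WT H3K27ac. Positions in Gm28439, Gm28661 and Gm29216 carried a peak in all lists. Another position in Gm28439 and one in Gm10925 carried a peak in both WT lists and none in KO, and one in Gm28437 carried a peak in WT EGR1 alone. All peaks lay within 4573 bp for WT EGR1, 4632 bp for WT H3K27ac and 4584 bp for KO H3K27ac. They covered 48.3% of that span for WT EGR1, 41.4% for WT H3K27ac and 22.1% for KO H3K27ac. The nearest peaks outside the stretch were far away in every list, about 2.06 Mb before it near Rims1, with scores of 3.48 to 3.74, and 10.7 Mb after it near Gm37068, with scores of 1.90 to 2.20.

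Gm28439 is the pseudogene nearest to Tubb4b-ps2, and its own ends were not matched to a mitochondrial gene. The peaks that the authors place in it fell at positions corresponding to mt-Nd4l, by way of Gm10222, and to mt-Nd4, by extension beyond Gm10222. The first peak in Gm28439 ran from 24611534 to 24611942 in WT H3K27ac, from 24611550 to 24611904 in KO H3K27ac and from 24611584 to 24611931 in WT EGR1. The scores were 2.25, 2.23 and 1.80, with ranks of 558 of 857, 564 of 844 and 750 of 847, so the peak stood lowest in its list for EGR1. Its second peak ran from 24612295 to 24612701 in WT H3K27ac with a score of 2.36, and from 24612294 to 24612692 in WT EGR1 with a score of 2.31. Both overlapped Gm10222, the RefSeq gene paired with mt-Nd4l by length, and KO had no peak there.

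The peaks in Gm28437 and Gm10925 had low scores. Gm28437 corresponds in position to mt-Co3, a subunit gene of cytochrome c oxidase, and its peak in WT EGR1 (24613546 to 24613861) scored 1.86. Gm10925 corresponds to mt-Atp6, a membrane subunit gene of the ATP synthase. Its peak ran from 24614243 to 24614624 in WT H3K27ac, where the score of 1.65 was the lowest of that list, and from 24614252 to 24614659 in WT EGR1, where it was 1.78. Both positions were without a peak in KO, and Gm28437 was also without one in WT H3K27ac.

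Gm28661 and Gm29216, which correspond in position, the latter by extension, to the cytochrome c oxidase subunit genes mt-Co2 and mt-Co1, carried the 2 highest scores of the stretch in both WT lists. The peak in Gm28661 ran from 24614961 to 24615284 in WT H3K27ac, from 24614990 to 24615337 in KO H3K27ac and from 24614955 to 24615282 in WT EGR1. It scored 2.67 for WT EGR1, 2.51 for WT H3K27ac and 1.82 for KO H3K27ac, with ranks of 456 of 847, 503 of 857 and 738 of 844, lowest in KO. The peak in Gm29216 ran from 24615770 to 24616165 in WT H3K27ac, from 24615824 to 24616133 in KO H3K27ac and from 24615745 to 24616156 in WT EGR1. The score of this peak was 4.35 in KO H3K27ac, 3.25 in WT H3K27ac and 2.91 in WT EGR1. Its deposited p-value was 6.68e-06 in KO H3K27ac, 0.000582 in WT H3K27ac and 0.00179 in WT EGR1. It ranked 275 of 844 in KO, 381 of 857 in WT H3K27ac and 416 of 847 in WT EGR1, highest in KO. Within the stretch the KO list thus had fewer peaks, and its peak in Gm29216 stood higher in its own list than any other member did.

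**Figure D2:**
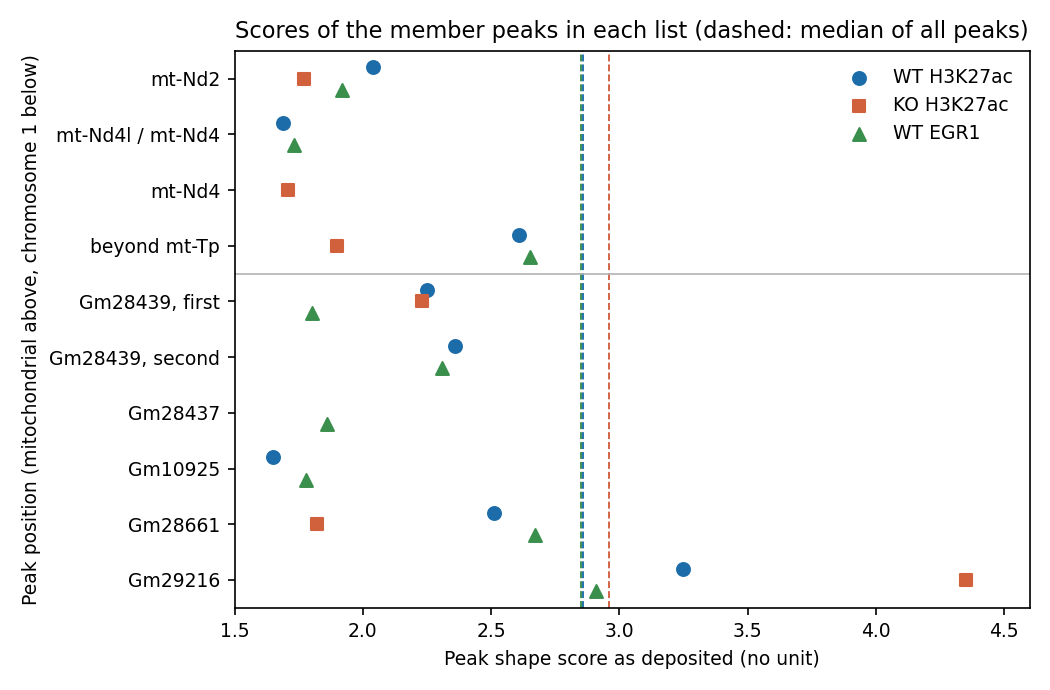
Deposited peak shape score of every member peak (horizontal axis, no unit) by position, with 1 symbol per list; dashed lines give the median score of all peaks in each list (2.86 in WT H3K27ac, 2.96 in KO H3K27ac, 2.85 in WT EGR1). Only the peaks in Gm29216 lie to the right of the median of their own list.

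The scores placed the members in the lower part of each list. For WT H3K27ac 7 of 8 members scored below the list's median of 2.86, for WT EGR1 8 of 9 below 2.85 and for KO H3K27ac 5 of 6 below 2.96. The exception in each was the peak in Gm29216. A score under 2 was given to 1 of 3 mitochondrial peaks for WT H3K27ac, 2 of 3 for WT EGR1 and 3 of 3 for KO. On chromosome 1 it was 1 of 5, 3 of 6 and 1 of 3 in that order. Over all peaks the share under 2 was 22.8%, 23.0% and 21.6% in that order. The members were longer than most peaks of their list. The list's median was 324 bp for WT H3K27ac, and 7 of 8 members exceeded it. It was 323 bp for WT EGR1, exceeded by 7 of 9, and 310 bp for KO H3K27ac, exceeded by 5 of 6. Peaks scoring under 3 had the same median lengths as all peaks of their list. The longest member was the WT EGR1 peak in Gm29216, at 412 bp.

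Chromosome 1 peaks were then set beside the mitochondrial peaks of the same library by the corresponding positions. In both WT lists the peak spanning mt-Nd4l and mt-Nd4 lay wholly inside the image of the second Gm28439 peak. In WT H3K27ac that image ran from 9877 to 10282 and held the mitochondrial peak at 9935 to 10272, with centres 9 bp apart. In WT EGR1 it ran from 9885 to 10283 and held the peak at 9915 to 10258, with centres 24 bp apart. In KO both were missing. The KO peak in mt-Nd4 instead shared 39 bp, or 11.9% of its length, with the image of the first Gm28439 peak. That image, at 10673 to 11027, was placed by extension, and the centres lay 221 bp apart. The images of the first Gm28439 peak in the WT lists met no mitochondrial peak.

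The other images met no mitochondrial peak either. They fell in mt-Co1 and mt-Co2 in all lists, over mt-Atp8 and mt-Atp6 in both WT lists and in mt-Co3 in WT EGR1. So 1 of 5 chromosome 1 peaks for WT H3K27ac and 1 of 6 for WT EGR1 had a mitochondrial peak at the corresponding position. For KO H3K27ac it was 1 of 3, by the 39 bp at one end only. The chromosome 1 peaks covered 41.4%, 48.3% and 22.1% of their span in that order. How often unrelated positions would touch by 1 bp was not estimated. The image with the highest score in every list, that of the Gm29216 peak in mt-Co1, was among those without one. In the other direction, the mitochondrial peaks in mt-Nd2 and beyond mt-Tp lay outside the range of all images, which ran from 6413 to 11043 over the 3 lists. By the same sums the chosen stretch does not reach these positions, so no image could have fallen there. Counted by gene, images touched 6 of the 13 protein-coding genes for WT H3K27ac, 7 for WT EGR1 and 3 for KO H3K27ac. A mitochondrial peak and an image both touched mt-Nd4l and mt-Nd4 in the WT lists, and mt-Nd4 alone in KO. Where reads fit either copy, peaks at corresponding positions may rest on the same reads, which was not tested.

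**Figure D3:**
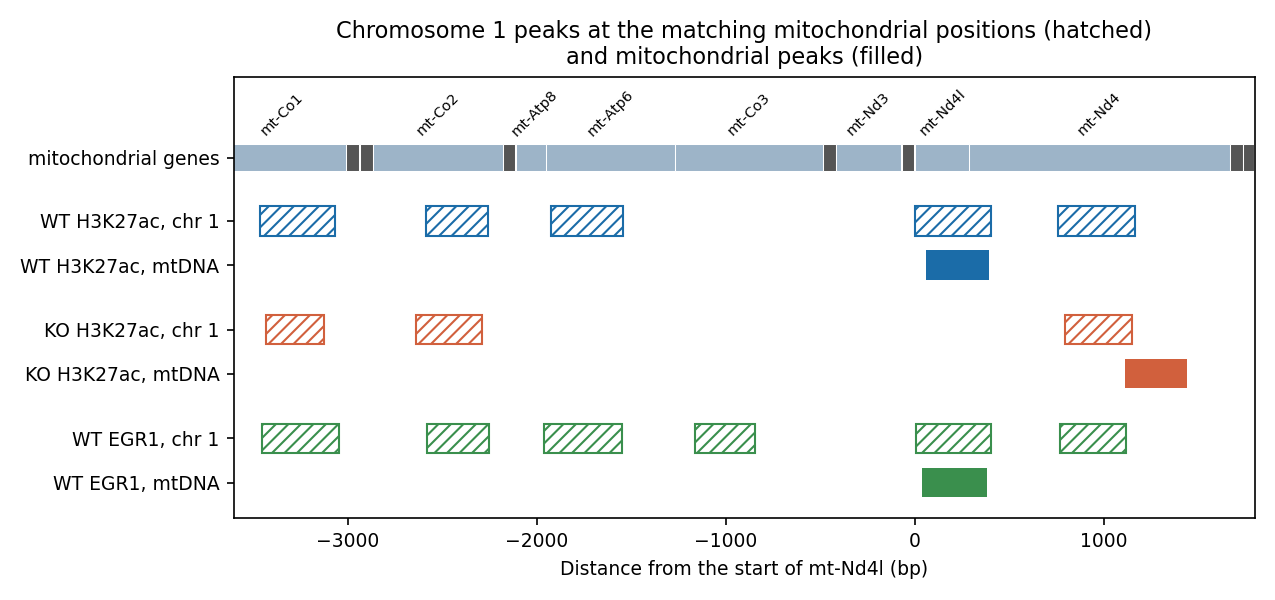
Chromosome 1 peaks drawn at their corresponding mitochondrial positions (hatched boxes) above the mitochondrial peaks of the same library (filled boxes), by distance in bp from the start of mt-Nd4l, with protein-coding genes in blue and tRNA genes dark. In both WT lists the filled box lies inside a hatched box; in KO it meets the end of another one by 39 bp.

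Overlap between lists was then counted, taking 1 bp as enough. Of the WT H3K27ac members, 2 of 3 mitochondrial and 3 of 5 chromosome 1 peaks overlapped a KO peak. The share over all WT H3K27ac peaks was 86.8% (744 of 857, exact 95% binomial interval 84.4 to 89.0, counting error only). Of WT H3K27ac peaks scoring under 2, where the peaks in mt-Nd4l and Gm10925 fell, 53.8% overlapped a KO peak. Among those scoring from 2 to under 3, where the second Gm28439 peak fell, 90.8% did. Of the KO members, 2 of 3 mitochondrial and 3 of 3 chromosome 1 peaks overlapped a WT H3K27ac peak, against 88.3% of all KO peaks, and the same members overlapped a WT EGR1 peak, against 88.2%. The KO peak that met none was the one in mt-Nd4, and of KO peaks scoring under 2, as it did, 60.4% overlapped a WT H3K27ac peak. With so few members these shares were not tested against those of the whole list.

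All 8 WT H3K27ac members overlapped a WT EGR1 peak, 3 mitochondrial and 5 on chromosome 1, beside 95.9% of all WT H3K27ac peaks. In reverse 3 of 3 mitochondrial and 5 of 6 chromosome 1 peaks of WT EGR1 overlapped a WT H3K27ac peak, beside 97% of all WT EGR1 peaks, and the exception was the peak in Gm28437. Of WT EGR1 peaks scoring under 2, as this one did, 87.7% overlapped a WT H3K27ac peak. Against KO H3K27ac the WT EGR1 members gave 2 of 3 mitochondrial and 3 of 6 chromosome 1 peaks, beside 87.7% of all. Of the WT EGR1 members that met no KO peak, those in mt-Nd4l, Gm28437 and Gm10925 scored under 2. The second Gm28439 peak, which also met none, scored 2.31. The share among low-scoring WT EGR1 peaks was not counted against KO. The WT lists share a genotype but not an antibody, and the H3K27ac lists share an antibody but not a genotype. At these positions the WT lists held the more similar sets of peaks, as they did over all peaks. KO is 1 library, so its genotype cannot be told apart from other traits of that library.

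The exact positions of the members moved more between lists than those of most peaks. Over 8 member pairs of WT H3K27ac and WT EGR1 the median distance between the deposited centres was 10.5 bp (range 0 to 135). Over all 814 pairs in which each peak had 1 partner it was 1 bp, and over the 410 pairs with a WT H3K27ac score under 3 it was also 1 bp. Of the 8 member pairs, 7 were farther apart than that median, and the distance of 135 bp belonged to Gm10925. Between WT and KO H3K27ac the median was 25 bp over 5 member pairs (range 6 to 48) against 7 bp over all 739 pairs and 8 bp over the 332 pairs with a WT score under 3. Between KO H3K27ac and WT EGR1 the median was 26 bp over 5 member pairs (range 10 to 75) against 7 bp over all 738 pairs. Over the 337 of these pairs with a KO score under 3 it was 10 bp. The members are neighbours in 2 loci and not independent, so no test was made.

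**Figure D4:**
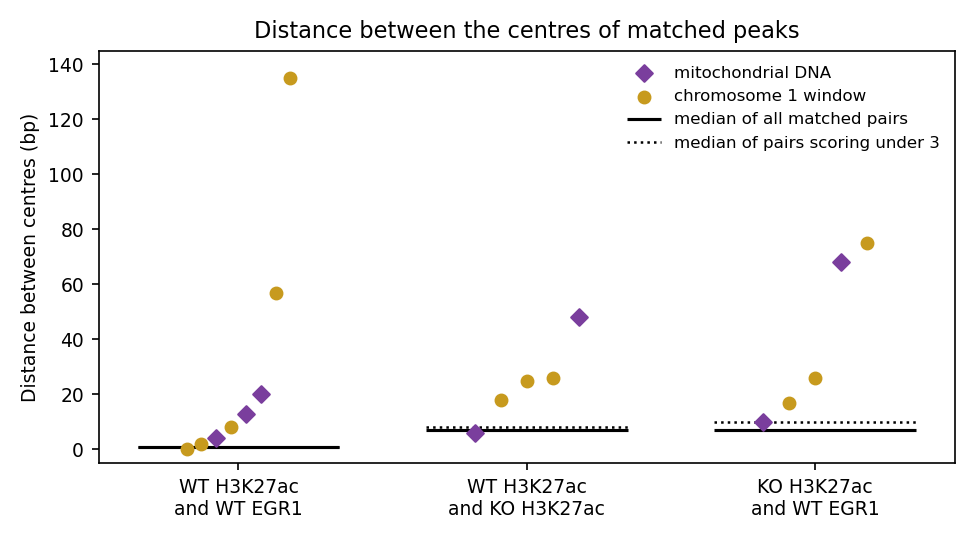
Distance in bp between the centres of matched member peaks (diamonds, mitochondrial DNA; circles, chromosome 1) for each pair of lists; solid lines give the median over all matched pairs and dotted lines the median over pairs whose first-named list scores under 3, where it differs. Most members lie above both lines, up to 135 bp for Gm10925 between WT H3K27ac and WT EGR1.

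Lengths of matched members did not all shift one way. The KO peak was the shorter one in 3 of 5 member pairs with WT H3K27ac, and in 80.8% of all such pairs. The peak in Gm29216 went from 396 bp in WT to 310 bp in KO, and the first Gm28439 peak from 409 to 355 bp. The peaks in Gm28661 and mt-Nd2 were longer in KO, at 348 against 324 bp and 377 against 345 bp.

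The chromosome 1 stretch was also set beside other dense groups of peaks. When peaks within 10 kb were joined over all lists, 596 loci resulted, of which 45 held 3 or more peaks in at least 1 list. In 11 of these 45 the number of peaks differed by 3 or more between lists, as it did here with 5, 3 and 6. Among the 17 loci with 5 to 7 peaks in their fullest list, 3 differed by that much. One of the others, at C130026I21Rik and Gm2619 on chromosome 1, likewise held fewer peaks in KO (6, 3 and 6 in WT H3K27ac, KO H3K27ac and WT EGR1), while Gm10232 on chromosome 17 held more in KO (3, 7 and 3). Lower numbers in KO were also seen at further dense loci outside the mitochondrial copy. In the same order of lists, Gm20586 held 5, 3 and 5 peaks and Gm15065 held 26, 21 and 24. Elsewhere KO held the most, as at Gm26870 with 53, 60 and 54.

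Genes with a pattern like that of Gm28439, which held 2 peaks in each WT list and 1 in KO, were ranked by the difference in these numbers and then in the highest score, over 3 lists. The nearest was Tusc3, which codes for a subunit of the oligosaccharyltransferase complex, with the same numbers and highest scores, for WT H3K27ac, KO H3K27ac and WT EGR1, of 2.22, 2.20 and 2.14 beside 2.36, 2.23 and 2.31 for Gm28439. The next were C230088H06Rik, with 2.86, 2.13 and 2.70, and Pde1c, a phosphodiesterase gene, with 5.98, 5.75 and 6.10. In all 4 genes outside the members had the same 3 numbers, among 235 genes with a peak inside in at least 1 list.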

How the data were processed

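The files hold the called peaks of 3 libraries, a list each, as the authors deposited them. The submitters' processing notes name the build mm10. No label or header names the aligner or the peak caller, or says whether the input was used. Per the file headers, the columns are the region, its centre and length, the peak shape score and the p-value, followed by the flanking genes and their distances in bp. The score, a number with no stated unit, and the p-value are those of the authors' peak calling, and the largest deposited p-value is 0.05. Groups were taken from the sample titles. Positions are given as deposited, counted from 1.

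The members and gene lists were chosen with earlier results of these data known. Genes named are those the authors place beside a member peak, the 37 mitochondrial genes, RefSeq genes in the chromosome 1 stretch, and the 3 genes nearest to Gm28439 in numbers of peaks. The Egr1 and dendritic cell check, the corresponding positions, the joined loci and the score bands were added after the data were seen. Overlaps (at least 1 bp) were counted with pandas 2.3.3 and checked with bedtools 2.31.1 and on simulated intervals. Intervals are exact binomial (scipy 1.17.1) and cover counting error over peaks only. RefSeq coordinates are of GRCm38.p6, the assembly of mm10. The rows of the RefSeq table outside each chromosome's main run, 242 of 49997, were left out of the count of protein-coding genes. No sequence of a member gene was found among the promoter sequences used here (0 of 80 names), so the EGR motif search was not run. With 1 library per group no test was made. Alternatives for thresholds, overlap, window and gene assignment are given in the closing section.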

Additional observations from a re-analysis of the deposited data

How the results depend on the processing

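Keeping only peaks with a deposited p-value of at most 0.01 changed most counts. It left 1 mitochondrial peak in each WT list, the one beyond mt-Tp, and 0 in KO, and on chromosome 1 it left 4 peaks in WT H3K27ac, 3 in WT EGR1 and 2 in KO. Deposited p-values of 0.01 and above have 2 decimals. With the normal upper-tail p of the score in their place, chosen after seeing the data, 3, 2 and 1 chromosome 1 peaks were left, and again 1, 1 and 0 mitochondrial peaks. Overlaps among peaks with a deposited p-value of at most 0.01 fell to 0 of the WT H3K27ac and 0 of the WT EGR1 mitochondrial peaks in KO, and to 1 between the WT lists in either direction. On chromosome 1 they fell to 3 between the WT lists in either direction, to 1 for WT EGR1 in KO and to 1 for KO in WT EGR1. Between WT and KO H3K27ac 2 were left on chromosome 1 in either direction. Of these, the first Gm28439 peak had a normal upper-tail p of the score above 0.01, at 0.0122 in WT and 0.0129 in KO. No KO mitochondrial peak remained, so its overlaps could not be counted. The highest KO mitochondrial score exceeded 13.9% of KO loci joined within 10 kb, against 16.4% of KO peaks. Measured between region midpoints, the median distance of matched members was 11 bp for WT and KO H3K27ac, 17 bp for WT H3K27ac and WT EGR1 and 28 bp for KO H3K27ac and WT EGR1, against 6, 3 and 5.5 bp over all pairs. Overlap of at least 50% of the shorter peak, centres within 100 bp, a window wider by 10 kb on each side, membership by any overlap and RefSeq gene coordinates left the counts within 1.5 times. No paired analysis was possible because each group is 1 library.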
